A study of Mus musculus with 4 samples.

Results

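The 10 genes described here encode the receptors through which fibroblast growth factors (FGF) and hepatocyte growth factor (HGF) act on muscle stem cells, a ligand of each receptor type, and 5 inhibitors of the signal. They are Fgfr1, Fgfr4, Fgf2, Met, Hgf, Spry1, Spry2, Spry4, Spred1 and Dusp6, taken by symbol from a list, 10 of the 32285 genes in the count tables, and every one was found in all 4 files. The cells were muscle stem cells of mice with the genotype MyoD-KI, whose MyoD locus reports through the red fluorescent protein tdTomato. They had been grown for 5 days in DMEM and Ham's F12 (39% each) with 20% fetal bovine serum and 1% Ultraser G, and the MyoD-tdTomato high fraction was collected in a flow cytometer for droplet-based sequencing of RNA from single cells. The labels give no age or sex and no number of mice, and cells sorted low for the reporter were not analysed here, so every comparison is between cells of the 1 sorted fraction. Because the sort was on MyoD, cells with little MyoD reporter are missing from all of them.

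The 4 files, labelled as replicates 1 to 4, were repeat libraries of the same cells. Any pair shared 5946 to 5965 cell barcodes, at least 99.9% of the smaller file. The median correlation of a barcode's counts with the same barcode in another file was 0.793 to 0.799, against 0.662 to 0.666 with other barcodes. Summed counts per gene agreed within sampling noise (chi-square per degree of freedom 0.901 to 1.03). They therefore stand for a single sample (n = 1), no test between conditions exists, and the spread between files measures library sampling only. Each file held 62627341 to 68898900 unique molecular identifiers (UMIs, counted RNA molecules). Of 5985 barcodes, 5944 were in all files, and 5481 were kept. Kept cells averaged 1000 genes or more per file, with mitochondrial UMIs below 10%, at a median of 11049 UMIs per cell and file. Levels are UMIs per 1000000 UMIs (CPM) of the summed cells, averaged over files. The 95% intervals cover counting error only and are not intervals for cells or mice.

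FGF receptors and Met are receptor tyrosine kinases that signal through adaptors to Ras and the kinases MEK and ERK. Myoblasts in culture divide in response to FGF, and HGF bound by Met is known for waking quiescent satellite cells. Sprouty proteins (Spry1, Spry2, Spry4) and the related Spred1 restrain the route to ERK, and Dusp6 removes the phosphates that activate ERK. Several of these inhibitors are themselves induced by the pathway, which makes them feedback genes. Spry1 is known in satellite cells for their return to quiescence. Myog, the factor that starts terminal differentiation, was used to order the cells. It was under 400 CPM in 2572 cells (46.9%), from 400 to under 1500 CPM in 579 (10.6%) and at least 1500 CPM in 2330 (42.5%). Markers of the muscle lineage were abundant: summed Myod1 and Myog stood at 2310 CPM. Summed markers were at 1.94 CPM for endothelial cells, at 0.925 CPM for immune cells and at 1.47 CPM for Schwann cells.

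The 3 receptors were detected with 3153 (Met) to 5481 (Fgfr4) UMIs per file. Fgfr1, the widely used FGF receptor, is on chromosome 8 (GRCm38, 25513654 to 25575718, plus strand). Over all kept cells it gave 77.9, 78.6, 78.2 and 78.6 CPM in the 4 files. Fgfr4, the receptor associated with the muscle lineage, lies on chromosome 13 (55152640 to 55168759, plus strand). It gave 84.7, 82.3, 83.3 and 82.2 CPM. Met, the HGF receptor, lies on chromosome 6 (17463800 to 17573980, plus strand) and gave 47.8, 48.1, 47.9 and 47.3 CPM. The files were close to each other for each receptor, and each file lay within the 95% counting interval of the mean. Levels were not ranked between genes, since a method that reads one end of the transcript, with unknown priming sites, gives no level per length.

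The ligands were barely detected. Fgf2 is a broad FGF ligand and mitogen of satellite cells (chromosome 3, 37348346 to 37410108, plus strand). It gave 304 UMIs over all files, in 198 cells. Hgf (chromosome 5, 16553495 to 16620152, plus strand) gave 46 UMIs in 24 cells, with up to 6 from a single cell. In CPM this was 1.19, 0.970, 1.34 and 1.12 for Fgf2, and 0.207, 0.132, 0.166 and 0.194 for Hgf. Of the cells with an Hgf UMI in any file, 19 were under 400 CPM of Myog and 21 had a Pax7 UMI. Pax7 is the transcription factor of the stem cell state. Fgf2 overlaps Nudt6 and Fgf2os on the opposite strand, and Fgfr1 overlaps Gm16159 on the opposite strand. How the counting used strand is not given in the sources used here, so molecules of such partners could not be told apart from these values.

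Among the inhibitors, Spred1 (chromosome 2, 117121374 to 117182279, plus strand) and Spry2 (chromosome 14, 105891947 to 105896819, minus strand) stood at 40.8 CPM [39.3 to 42.4] and 40.2 CPM [38.7 to 41.8] over all kept cells. Spry1 (chromosome 3, 37639947 to 37644598, plus strand) had 12.1 CPM [11.2 to 12.9]. Spry4 had 5.95 CPM [5.38 to 6.57], and Dusp6 (chromosome 10, 99263231 to 99267489, plus strand) had 4.03 CPM [3.56 to 4.55]. The 250 bases before the RefSeq start of 4 inhibitor genes are shown because these genes went in different directions along Myog. Sequences are from RefSeq on GRCm38.p6, read 5′ to 3′ on the gene's strand. The windows are chr3:37639697-37639946 for Spry1, chr14:105896820-105897069 (minus strand) for Spry2, chr2:117120821-117121070 for Spred1 and chr10:99262981-99263230 for Dusp6. The gene positions come from another annotation. For Spred1 the window ends at 117121070 and the gene position starts at 117121374, so the window does not adjoin that start. Capitals mark CANNTG, the E-box core that basic helix-loop-helix factors such as MyoD and myogenin can bind.
Spry1: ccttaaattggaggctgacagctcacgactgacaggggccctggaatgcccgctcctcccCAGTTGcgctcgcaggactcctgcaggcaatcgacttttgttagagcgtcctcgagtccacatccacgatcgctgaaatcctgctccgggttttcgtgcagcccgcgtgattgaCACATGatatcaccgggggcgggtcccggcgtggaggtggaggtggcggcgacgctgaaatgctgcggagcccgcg
Spry2: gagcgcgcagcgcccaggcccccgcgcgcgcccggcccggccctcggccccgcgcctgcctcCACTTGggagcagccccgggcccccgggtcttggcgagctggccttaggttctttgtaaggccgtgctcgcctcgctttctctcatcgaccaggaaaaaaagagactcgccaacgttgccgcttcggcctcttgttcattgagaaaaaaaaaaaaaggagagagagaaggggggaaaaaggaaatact
Spred1: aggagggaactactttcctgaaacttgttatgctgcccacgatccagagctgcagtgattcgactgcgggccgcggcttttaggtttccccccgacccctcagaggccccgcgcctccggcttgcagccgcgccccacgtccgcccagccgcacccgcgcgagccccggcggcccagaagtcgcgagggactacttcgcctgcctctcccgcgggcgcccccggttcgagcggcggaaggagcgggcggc
Dusp6: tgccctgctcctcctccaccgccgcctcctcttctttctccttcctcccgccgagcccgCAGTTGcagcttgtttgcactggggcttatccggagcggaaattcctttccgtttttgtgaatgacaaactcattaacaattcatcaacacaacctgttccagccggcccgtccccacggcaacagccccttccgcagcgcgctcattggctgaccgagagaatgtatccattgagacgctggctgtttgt
CANNTG reads the same on both strands. It was found 2 times in the Spry1 window, 1 time in the Spry2 and Dusp6 windows and 0 times in the Spred1 window. It is a common word, present in 66.2% of 32851 promoter windows of the same length. The narrower CAGCTG, in 13.0% of all windows, was in none of the windows of the 8 matched members. The ETS-type word CCGGAAG, searched on both strands and in 6.91% of windows, was absent from them too. The AP-1 word TGANTCA, searched on both strands and in 6.75% of windows, was in the Met window alone, 1 time. None of these words overlaps another by rule except that CAGCTG is also a CANNTG. Fgfr1 and Spry4 had no matched window. These matches describe letters and not binding.

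Along Myog the receptors parted. Over all kept cells Met fell off steadily, Fgfr4 peaked in the middle, and Fgfr1 stayed within a narrow range. In cells under 400 CPM of Myog, Met was at 74.3, 75.9, 74.7 and 75.1 CPM in the files. In cells of at least 1500 CPM it was at 18.9, 18.0, 17.8 and 16.7 CPM. All 4 files of the low class were above all 4 of the high class, which for repeat libraries speaks to library sampling only. The difference was -2.01 in log2 of CPM + 1 (95% counting interval -2.15 to -1.88), or 4.20-fold in CPM. Over 5 finer Myog classes (under 100, 100 to 400, 400 to 1500, 1500 to 4000 and at least 4000 CPM) Met stood at 76.8, 70.0, 50.8, 23.7 and 9.91 CPM. It was lower in each class than in the one before.

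Fgfr4 had 91.9, 90.5, 92.8 and 91.5 CPM in the low class, 143.6, 132.3, 126.3 and 129.2 CPM in the middle class, and 61.1, 60.2, 61.7 and 59.7 CPM in the high class. The middle class was above both others in every file. The log2 difference was 0.53 (0.43 to 0.64) from low to middle and -1.12 (-1.23 to -1.01) from middle to high. Over the 5 finer classes the level was 80.4, 123, 133, 75.5 and 40.4 CPM. The peak covered the classes from 100 to 1500 CPM of Myog, in which Acta1, skeletal actin, was at 194 and 1166 CPM, against 3890 CPM in the next class. In cycling cells (at least 150 CPM of Mki67 and Top2a together) Fgfr4 was at 85.8, 149 and 95.5 CPM in the low, middle and high class. In non-cycling cells (under 75 CPM) it was at 110, 113 and 50.9 CPM. The rise from low to middle was thus mostly in cycling cells. Fgfr1 gave 81.2 CPM (78.0 to 84.4) in the low class, 82.9 (76.5 to 89.7) in the middle and 74.1 (71.0 to 77.4) in the high class. The low and middle classes did not differ beyond counting error. The difference from low to high was -0.13 (-0.21 to -0.05) in log2, smaller in size than the -0.28 of the median of all genes. With TMM or median-ratio scaling, which move that median to about 0, Fgfr1 was instead higher in the high class, by 0.17 and 0.18.

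**Figure D1:**
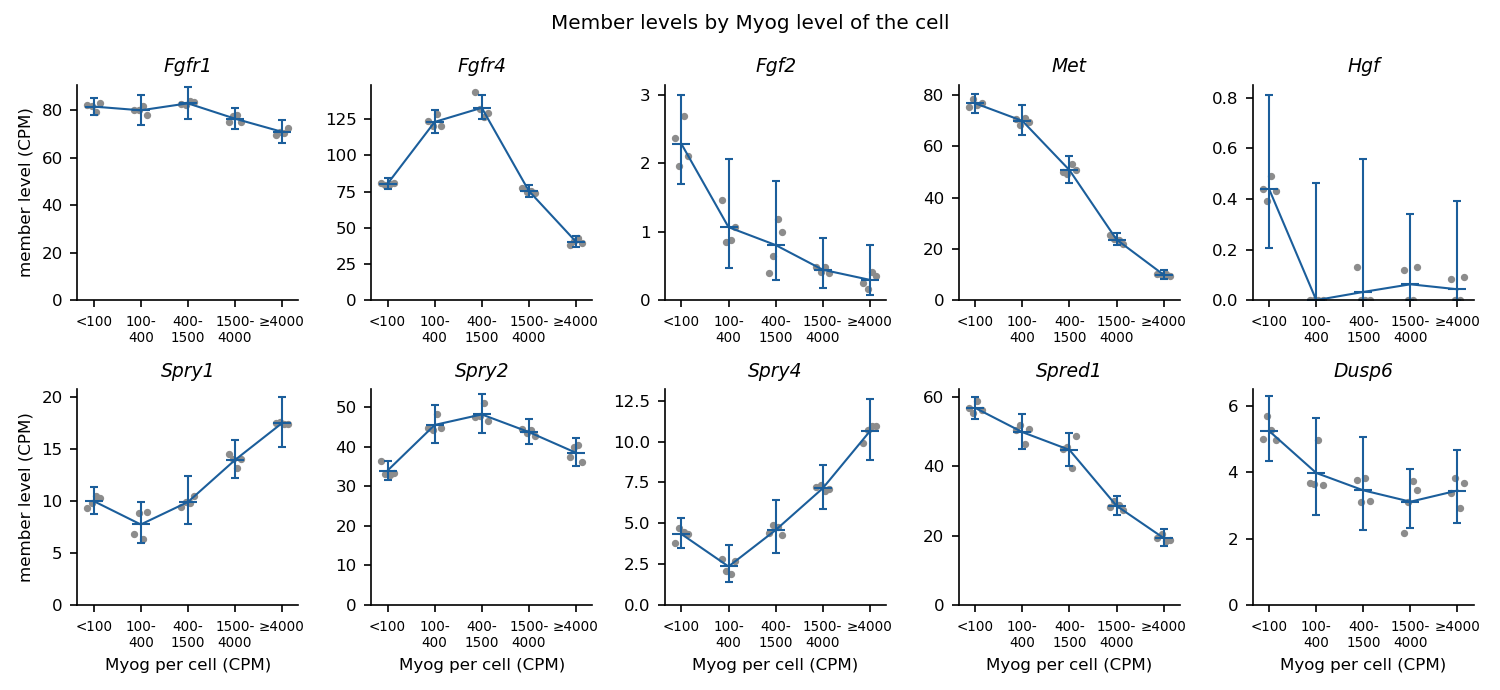
Level of each of the 10 genes (CPM, linear axis from 0) in 5 classes of cells ordered by Myog CPM. Points are the values of the 4 files, the line is their mean, and the bars are 95% Poisson counting intervals. Met drops from 76.8 to 9.91 CPM, Fgfr4 is highest in the classes from 100 to 1500 CPM of Myog, and Spry1 and Spry4 are highest in the last class.

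The inhibitors did not move as a group along Myog. Spred1 was lower in the high class, Spry1 and Spry4 were higher, and Spry2 differed little. Spred1 had 55.1, 54.3, 55.4 and 54.7 CPM in the low class and 24.5, 26.0, 24.4 and 23.6 CPM in the high class. The file values of the classes did not overlap, which speaks to library sampling only. The log2 difference was -1.13 (-1.25 to -0.998). Spry1 went the other way, from 8.69, 9.59, 9.41 and 9.98 CPM to 15.8, 15.6, 15 and 15.5 CPM. The log2 difference was 0.66 (0.46 to 0.86), and the file values were again apart, with the same limit.

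Spry4 had 3.55, 4.01, 3.78 and 3.91 CPM in the low class and 8.35, 8.74, 8.64 and 8.70 CPM in the high class. Its CPM ratio was 2.26, and its difference on the CPM + 1 scale was 1.00 (0.73 to 1.27), just under the 2-fold limit used for calls. Spry4 reached 10.6 CPM in the class of at least 4000 CPM of Myog, from 2.36 CPM in the class of 100 to 400 CPM. Spry2 was at 37.0 CPM in the low, 48.1 CPM in the middle and 41.5 CPM in the high class, so that its highest value, like that of Fgfr4, was in the middle. Its low-to-high difference was 0.16 (0.05 to 0.28), and among non-cycling cells it was -0.16 (-0.33 to 0.02). Dusp6 was at 4.91 CPM (4.15 to 5.77) in the low and 3.25 CPM (2.62 to 3.98) in the high class, a difference of -0.48 (-0.78 to -0.17).

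Fgf2 followed Met and Spred1, with 2.13, 1.67, 2.20 and 1.83 CPM in the low class and 0.381, 0.310, 0.458 and 0.378 CPM in the high class. The high class rests on 10.8 UMIs per file. The log2 difference was -1.10 (-1.39 to -0.72), and -0.37 with CPM + 5 in place of CPM + 1. Hgf had 9.75 UMIs per file in the low class and 1.5 in the high class, too few for the minimum of 50 UMIs set for calls.

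A gene was called where it differed by at least 2-fold on the CPM + 1 scale and had at least 50 UMIs per file over both classes. By this rule 9 of the 10 genes could be called, and Met, Spred1 and Fgf2 were called lower and 0 higher in the high Myog class. Among all 12916 genes with enough UMIs, 17.2% were called lower and 7.72% higher. This split moves with the scaling: 2224 genes were called lower and 997 higher, against 1548 and 1295 with median-ratio and 1562 and 1286 with TMM factors. The median of the 9 was -0.48, against -0.28 for all genes. Among non-cycling cells alone (1854 of high and 898 of low Myog), Fgfr4 was at 50.9 and 110 CPM (-1.09, -1.22 to -0.97) and was called lower together with Met and Spred1. Spry4 was there called higher, at 9.63 and 3.82 CPM (1.15, 0.70 to 1.60). The background in non-cycling cells was 8.13% higher and 18.5% lower of 11597 genes, and 8 members had enough UMIs.

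**Figure D2:**
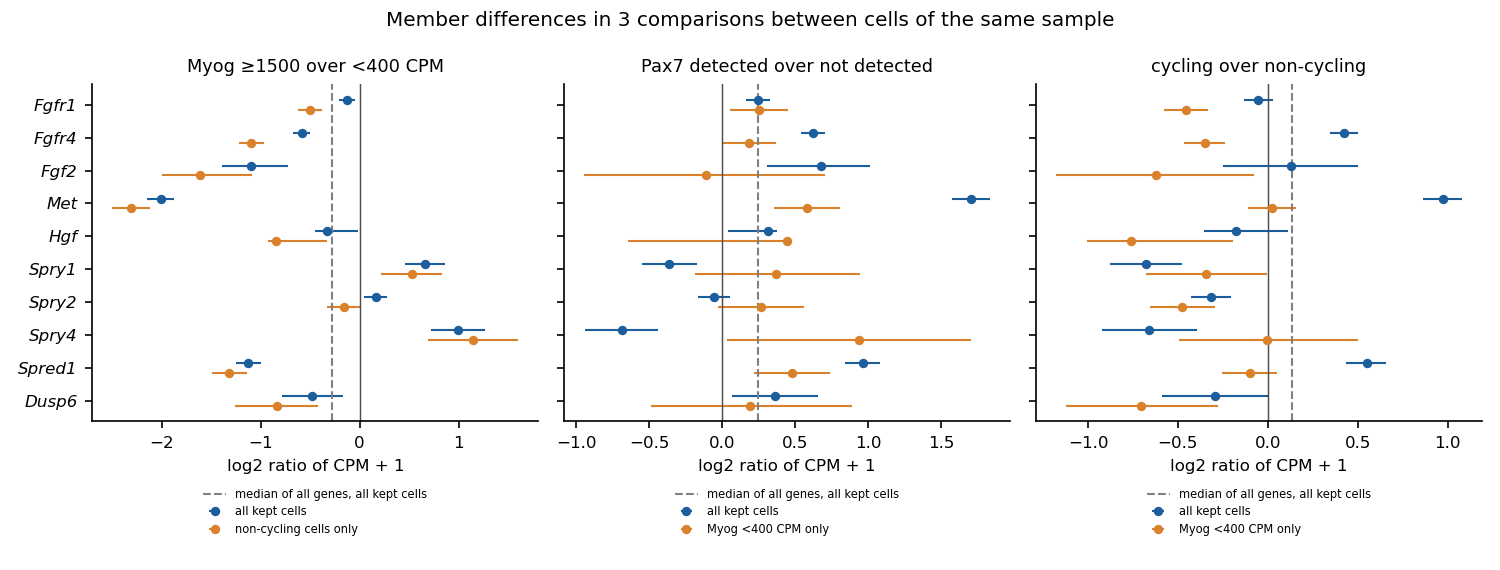
Log2 ratio of CPM + 1 for each gene in 3 comparisons between cells of the same sample (Myog, Pax7 and cycling), with 95% counting intervals. The colours give all kept cells and a restricted set of cells, the solid line is 0 and the dashed line the median of all genes. Hgf is drawn although it has under 50 UMIs per file. Met lies at -2.01, 1.71 and 0.97, and over all kept cells Spry1, Spry2 and Spry4 lie on the other side of 0 from Met in each panel.

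Within the high Myog class, Fgfr4, Met, Spry2, Fgfr1 and Spred1 were lower in later myocytes beyond counting error. Non-cycling cells of high Myog were split at the median of summed Acta1 and Myh3 into 927 earlier and 927 later myocytes. Fgfr4 was at 79.3 CPM in the earlier and 27.6 CPM in the later cells, a difference of -1.49 (-1.68 to -1.31) that made it the 1 gene of the 8 with enough UMIs to be called. Among 10496 genes in this comparison 4.11% were called higher and 4.76% lower. The later cells had the higher median depth, 12059 against 9944 UMIs. Met went from 19.8 to 9.63 CPM (-0.97, -1.29 to -0.66) and Spry2 from 53.1 to 32.3 CPM (-0.70, -0.89 to -0.51). Fgfr1 went from 82.6 to 61.7 CPM (-0.42, -0.56 to -0.27) and Spred1 from 25.4 to 20.0 CPM (-0.33, -0.58 to -0.08), with the median of all genes at -0.25. Spry1 (16.6 and 17.3 CPM), Spry4 (9.05 and 10.1 CPM) and Dusp6 (3.58 and 3.62 CPM) differed by less than counting error.

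Pax7-detected cells (2990, with a Pax7 UMI in any file) carried more Met and Spred1 than the other 2491. Their median depth was also higher, 11872 against 10419 UMIs. Met was at 66.7, 68.1, 67.3 and 67.5 CPM with Pax7 and at 21.1, 19.8, 20.3 and 18.7 CPM without. The file values did not overlap, which speaks to library sampling only. The difference of 1.71 (1.58 to 1.83) was the only one called among the 9 genes. The background was 12% called higher and 4.58% called lower of 13133 genes. Spred1 was at 51.3 and 25.8 CPM (0.96, 0.84 to 1.08), just under the limit. Fgfr4 was at 97.3 and 62.9 CPM (0.62, 0.54 to 0.70). Spry4 (4.55 and 7.94 CPM, -0.69) and Spry1 (10.7 and 14.0 CPM, -0.36) were lower with Pax7. Spry2 (39.5 and 41.1 CPM) differed by -0.06 (-0.17 to 0.05), within counting error, and Fgfr1 by 0.25, with the median of all genes also at 0.25.

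The same cells differed in Myog, whose mean was 669 CPM in Pax7-detected and 3414 CPM in other cells. Within cells under 400 CPM of Myog (2221 with and 351 without a Pax7 UMI) the Met difference was 0.58 (0.35 to 0.81) and that of Spred1 0.48 (0.22 to 0.74). Spry4 was then higher with Pax7, at 4.06 against 1.73 CPM (0.94, 0.03 to 1.70), and Spry1 at 9.67 against 7.28 CPM (0.37, -0.18 to 0.94). The sign of both values thus changed where Myog was held low, but on few counts. Spry4 without Pax7 rests there on 5.5 UMIs per file, its ratio ran from 0.34 to 1.28 over files, and the interval of Spry1 included 0. No member was called among these cells, where 1.74% of 11831 genes were called higher and 0.228% lower. The 351 cells also held less Malat1, a nuclear RNA. It was at 3851 CPM in cycling and 6185 CPM in non-cycling cells without Pax7, against 6519 and 13069 CPM with Pax7. Their median depth was 9776 and 7616 UMIs, against 12839 and 9084 UMIs. The part of both in these differences was not tested. Within cells of high Myog, Met was at 32.8 CPM in the 429 cells with Pax7 against 13.1 CPM in the 1901 without (1.26, 1.01 to 1.5). It was the 1 member called there, where 4.74% of 11242 genes were called higher and 0.0178% lower. Mean Myog in this class was lower with Pax7, at 2462 CPM in cycling and 3224 CPM in non-cycling cells, against 3192 and 4379 CPM. Median depth was higher with Pax7, at 18652 and 12863 against 10613 and 10762 UMIs. The part of Myog and depth in the Met difference was not tested.

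Cycling cells were those with at least 150 CPM of Mki67 and Top2a together (2126), and non-cycling cells those under 75 CPM (3015). Met was at 64.7 against 32.5 CPM (0.97, 0.86 to 1.08), Spred1 at 48.9 against 33.1 CPM (0.55, 0.43 to 0.66) and Fgfr4 at 96.2 against 71.6 CPM (0.42, 0.34 to 0.50). Spry1 (9.11 against 15.2 CPM, -0.68) and Spry4 (4.42 against 7.56 CPM, -0.66) were lower in cycling cells. These sets also differed in Myog, with a mean of 692 CPM in cycling and 2852 CPM in non-cycling cells. The part of Myog in these differences was not tested. No member of the 9 was called, on a background of 8.84% higher and 5.28% lower of 13047 genes.

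The contrast by cycling depended on the Myog class. Among cells of low Myog, Fgfr1, Fgfr4, Fgf2, Spry1, Spry2 and Dusp6 were higher in cells that were not cycling. Met, Spred1 and Spry4 differed by less than counting error. Met was at 75.7 CPM in 1492 cycling and 74.6 CPM in 898 non-cycling cells, a difference of 0.02 (-0.11 to 0.16). Fgfr1 was at 73.6 and 101 CPM (-0.45, -0.58 to -0.33), Fgfr4 at 85.8 and 110 CPM (-0.35, -0.47 to -0.24) and Spry2 at 33.2 and 46.5 CPM (-0.48, -0.66 to -0.30). Dusp6 was at 4.06 and 7.23 CPM (-0.71, -1.12 to -0.28). No member was called, where 5.54% of 11741 genes were called higher in cycling cells and 2.45% lower, and the median of all genes was -0.03. Among cells of high Myog (366 cycling and 1854 non-cycling) Fgfr1 and Fgfr4 went the other way and Met was higher in cycling cells. Met was at 31.1 against 14.2 CPM (1.08, 0.81 to 1.34), Fgfr4 at 95.5 against 50.9 CPM (0.89, 0.74 to 1.04) and Fgfr1 at 83.2 against 71.1 CPM (0.22, 0.07 to 0.37). Met was the 1 member called, where 9.08% of 11140 genes were called higher and 3.29% lower, with a median of 0.16. Mean Myog was lower in cycling cells of this class, at 2462 CPM with and 3192 CPM without Pax7, against 3224 and 4379 CPM in non-cycling cells. The 150 cycling cells with Pax7 had a median depth of 18652 UMIs, against 10613 UMIs in the 216 without. Met was at 40.7 and 20.4 CPM in these 2 sets, and at 26.03 and 11.96 CPM in non-cycling cells with and without Pax7. The part of Myog and depth in the differences of this class was not tested. Among cells of middle Myog (268 and 263) Fgfr4 was 0.39 (0.20 to 0.59) higher in cycling cells, and Met (0.24, -0.07 to 0.55) and Fgfr1 (0.03, -0.21 to 0.27) differed by less than counting error. These differences between Myog classes were not tested.

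The 741 non-cycling cells with Pax7 and low Myog had more Fgfr1, Fgfr4, Spry2, Dusp6 and Fgf2 than their cycling counterpart, beyond counting error. In them Fgfr1 was at 107.9, 103, 103.1 and 104.9 CPM, against 73.9, 75.8, 73.1 and 74.1 CPM in the 1349 cycling cells with Pax7 and low Myog. The difference between those sets was -0.49 (-0.62 to -0.36) for cycling over non-cycling cells. Dusp6 was at 8.85, 7.14, 8.03 and 6.80 CPM against 3.26, 4.76, 4.24 and 3.97 CPM, and Fgf2 at 3.21 against 1.49 CPM. Met (80.1 against 77.0 CPM, -0.06, -0.20 to 0.08) and Spred1 (60.8 against 54.4 CPM, -0.16, -0.32 to 0.00316) differed by less than counting error. Hgf was at 0.968, 1.10, 0.846 and 1.06 CPM against 0.105, 0, 0.214 and 0.0575 CPM. Of the 24 cells with an Hgf UMI, 12 were in this state, which holds 13.5% of kept cells. The 5 states in which Hgf was at 0 hold few cells, where a count of 0 allows 0.942 to 3.64 CPM, so Hgf cannot be ranked over the states. The non-cycling state of low Myog with Pax7 was singled out after its values were seen, and Hgf there rests on 7 UMIs per file.

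Malat1 was at 13069 CPM in the non-cycling and 6519 CPM in the cycling set. In the 768 kept cells under 2000 CPM of Malat1, all 9 members with enough UMIs had lower values than in the other 4713 cells. The log2 differences ran from -0.40 (Dusp6) to -0.92 (Spry4), with a median of all genes of -0.26. Of all genes, 40.8% lay below Dusp6 and 13.6% below Spry4. The intervals of Dusp6 (-0.89 to 0.10) and Fgf2 (-1.04 to 0.05, on 3.5 UMIs per file in the 768 cells) included 0. None of the 9 was called, where 0.0305% of 13133 genes were called higher and 10.9% lower. The part of Malat1 content in the differences by cycling was not tested.

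**Figure D3:**
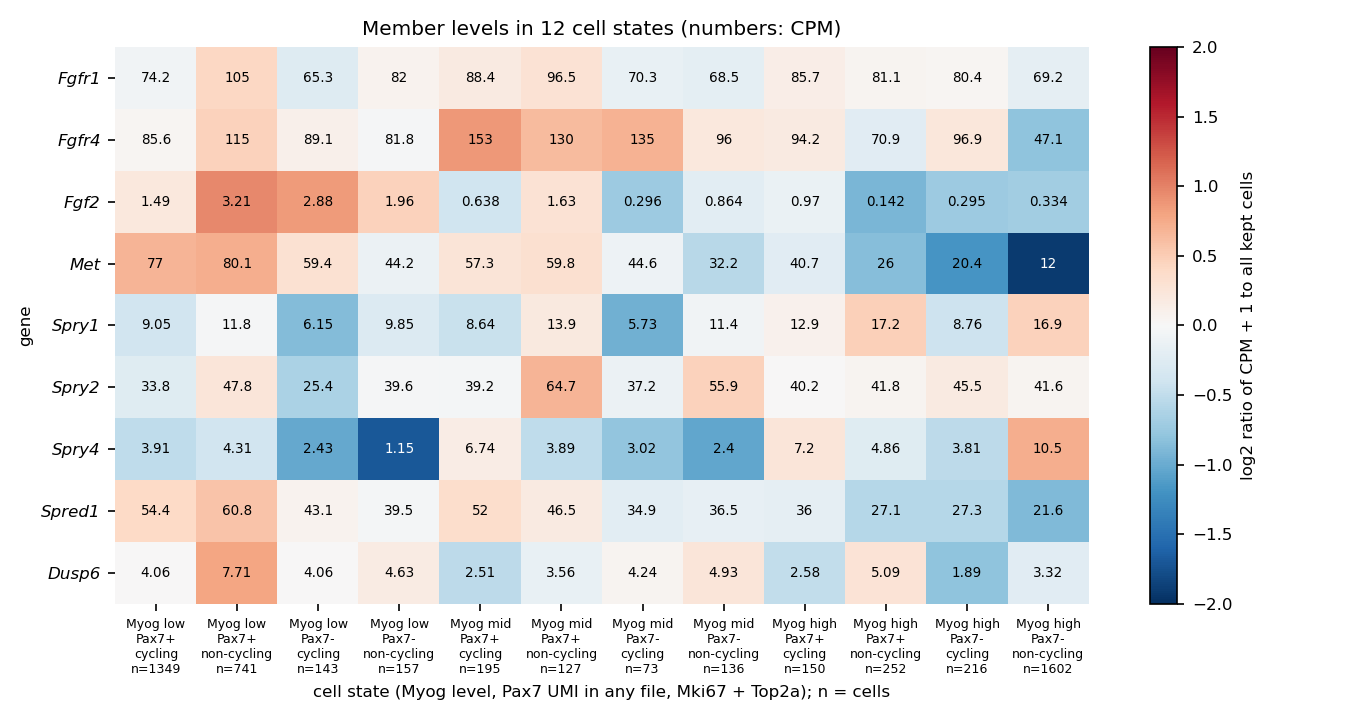
Levels of 9 of the genes (without Hgf) in 12 cell states defined by Myog class, a Pax7 UMI and cycling. Numbers are CPM and colour is the log2 ratio of CPM + 1 to all kept cells. Met is at 77.0 and 80.1 CPM in the low Myog states with Pax7, and Spry4 is at 10.5 CPM in non-cycling cells of high Myog without Pax7.

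Detection per cell followed the same directions along Myog. Each cell was thinned to 5000 UMIs in each file, which left 5197 cells and dropped 284. Met was detected in 18.0% of cells per file (95% exact binomial interval 17 to 19.1), in 27.5% (25.7 to 29.3) under 400 CPM of Myog and in 7.51% (6.45 to 8.68) at 1500 CPM or more. Spred1 was detected in 22.4% and 10.6% of the same classes. Fgfr4 was detected in 33.9% of cells of low, 45.7% of middle and 23.4% of high Myog, and Fgfr1 in 31.0%, 31.6% and 29.7%. Spry4 was detected in 1.76% and 3.92% of cells of low and high Myog, and Spry1 in 4.55% and 7.23%. Without thinning, at the median depth of 11049 UMIs, Met was detected in 33.7% and Fgfr4 in 49.9% of cells. Every class here was myogenic, so no cell type known to lack these genes was at hand as a background for free RNA. Detection was incomplete: a cell with a Met UMI in one file had one in another file in 35.8% of cases, and for Fgfr4 in 49.9%, Spry1 in 16.3% and Fgf2 in 6.72%.

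Detection of pairs was compared across different files, so that counting in one file did not enter the other. Spred1 was detected in 21.8% (19.2 to 24.6) of cells with a Met UMI and in 15.8% (14.7 to 16.9) of cells without. Met was detected in 21.3% (19.3 to 23.4) of cells with an Fgfr4 UMI and in 16.5% (15.3 to 17.8) of cells without. Among cells of low Myog these were 24.1% against 21.8% for Spred1 by Met, and 28.8% against 26.8% for Met by Fgfr4. The intervals of each of these latter pairs overlap. Spry1 was detected in 5.18% of cells with and 5.76% of cells without a Met UMI, within counting error.

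Over the 12 states Met and Spred1 had the closest profiles of any 2 members (Pearson r = 0.96 over 12 states of the same libraries, a description). Spry1 ran against Fgfr4 (r = -0.51) and Met (r = -0.43). The genes most like Met, among those of at least 20 CPM, were Klf12, Hpcal1 and Arhgap22 (r = 0.99 each). Those most like Spred1 were Pam, Arhgap21 and Ahnak (r = 0.98 each). Rell1, Sytl2 and Pak1 were most like Fgfr4 (r = 0.93, 0.93 and 0.92), and Rftn2, Mir22hg and Gmfb most like Spry1 (r = 0.96, 0.95 and 0.94). Kremen1, Ubn2 and Igdcc4 followed Spry2 (r = 0.96, 0.94 and 0.94), and Pcnx, Mbd5 and Map2k5 followed Fgfr1 (r = 0.89, 0.88 and 0.88). Cab39, Gtf2ird1 and Sept11 were closest to Spry4 (r = 0.89 each), Bgn, Epb41l4aos and Rcn3 to Fgf2 (r = 0.91, 0.91 and 0.90), and Tbrg1, Ccnh and Mcts1 to Dusp6 (r = 0.88, 0.86 and 0.85). The states come from the same libraries, their median depth ranges from 7616 to 18652 UMIs, and the likeness of the low genes rests on few UMIs.

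Around the members, some genes of the FGF family were higher at high Myog. Of 21 other FGF family genes, 7 had enough UMIs for the Myog comparison, and 3 were called higher and 0 lower, against 7.72% and 17.2% of all genes. Secreted ligands made up 2 of the 3. Fgf6, a muscle FGF, was at 4.28 CPM in the high and 0.0854 CPM in the low class. Fgf21, a secreted hormone, was at 18.3 and 0.242 CPM, and Fgf13, which acts within cells and not as a ligand, at 335 and 52.8 CPM. The median of the 7 was 0.54, against -0.28 for all genes.

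Several of the proteoglycans that hold FGF at its receptor were higher at low Myog. Of 11 tested of 14 other receptors and co-receptors, 5 were called lower and 0 higher, against 17.2% and 7.72% of all genes. These were Sdc1, Sdc2, Sdc3, Sdc4 and Gpc6, with Gpc6 at 107 CPM in the high and 477 CPM in the low class and Sdc4 at 33.3 and 73.0 CPM. Fgfr2 was at 31.7 and 39.5 CPM and Fgfr3 at 2.09 and 1.22 CPM, neither past the limit. Among genes for the activation of HGF outside the cell, the proteases Plau (3.55 against 10.9 CPM) and Plat (0.195 against 2.07 CPM) and the receptor of Plau, Plaur (2.26 against 15.8 CPM), were called lower in the high class.

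Over all 12916 genes tested along Myog, 17.2% were called lower and 7.72% higher, the shares beside which the list counts stand. Of 13 genes of the Ras and ERK core, 2 were called lower (Mapk3, which encodes ERK1, at 15.6 against 55.2 CPM, and Rasa1 at 47.2 against 170 CPM) and 0 higher, with a median of -0.34, close to the median of all genes at -0.28. Of 10 tested adaptors, 1 was called, Gab1, the docking protein used by Met, at 7.33 against 19.0 CPM. Of 14 tested of 15 other feedback genes, 8 were called lower, among them Spred2 (13.2 against 62.2 CPM), Il17rd and Errfi1, and 2 higher, the phosphatases Dusp8 (8.56 against 0.710 CPM) and Dusp14 (26.1 against 7.12 CPM). Their median was -1.22. Of 15 tested of 17 genes known to respond to ERK, a list that holds Dusp6 itself, 9 were called lower and 0 higher. Etv4 was at 1.42 against 10.2 CPM, Fosl1 at 3.61 against 29.0 CPM and Ccnd1 at 38.5 against 304 CPM, and their median was -1.87. Egr1 (42.7 and 32.7 CPM) and Fos (6.88 and 7.67 CPM) of the same list were not called.

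Other receptor tyrosine kinases were mixed, with 4 called lower (Egfr, Igf1r, Pdgfrb and Axl) and 1 higher (Erbb3, 53.3 against 8.07 CPM) of 7 tested of 11. Within cells of low Myog, none of the genes in these 8 lists was called by cycling, and by Pax7 only Egfr and Pdgfrb were, both higher. Of all genes there, 5.54% were called higher and 2.45% lower by cycling, and 1.74% higher and 0.228% lower by Pax7. Plaur is on 2 of the lists.

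**Figure D4:**
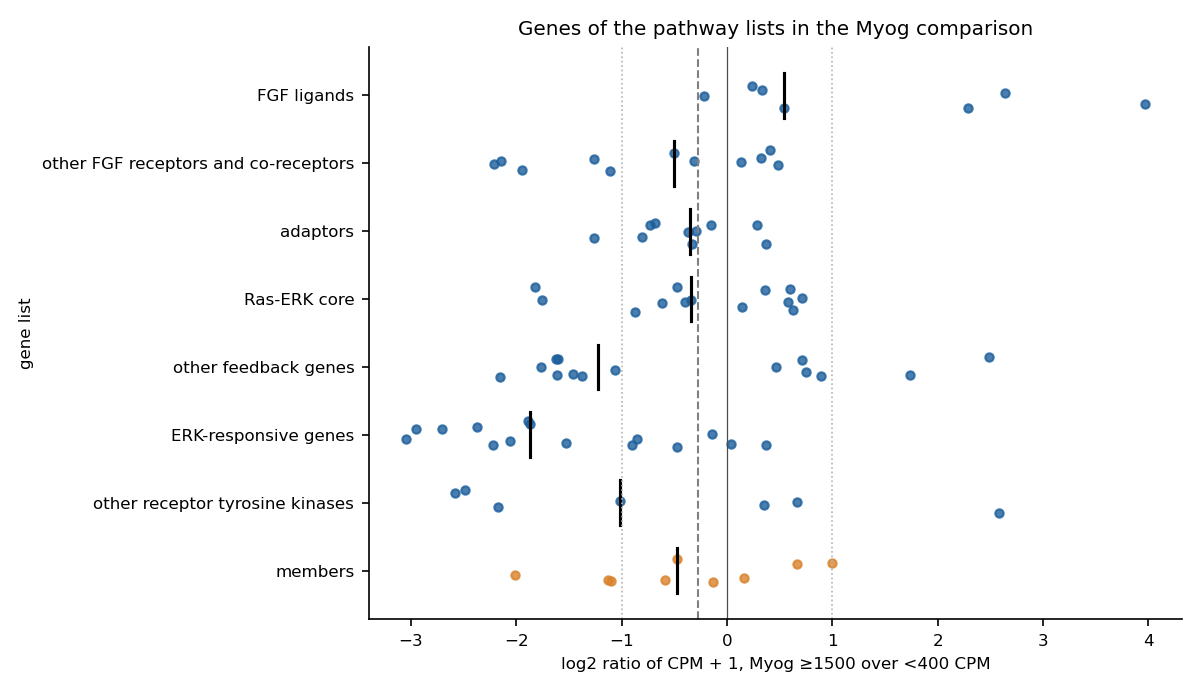
Log2 ratio of CPM + 1 between cells of at least 1500 and under 400 CPM of Myog for the genes of 7 pathway lists and the members, 1 point a gene with enough UMIs. Black bars are list medians; vertical lines mark 0 (solid), the 2-fold limits (dotted) and the median of all genes (dashed). The ERK-responsive and other feedback genes lie mostly to the left, with medians of -1.87 and -1.22, and the adaptors and Ras-ERK core near the median of all genes, -0.28.

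Markers of fibroblasts and of pericytes moved with Met and Spred1. The 7 fibroblast markers summed to 213 CPM (211 to 215 over files) in the low and 66.1 CPM (64.5 to 67.6) in the high Myog class, from 2 genes over 1 CPM, Col3a1 and Ly6a. The defining markers Pdgfra (0.839 CPM), Dcn (0.373 CPM), Lum (0.00801 CPM), Pi16 and Dpt were near 0 in the low class. The 5 pericyte markers summed to 123 CPM (121 to 126) and 22.6 CPM (21.6 to 23.0), with 4 over 1 CPM in the low class, mostly Notch3 at 88.6 CPM, and Myh11 at 0.198 CPM. Their part in the differences of the members was not tested.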

How the data were processed

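The 4 deposited files hold raw UMI counts, a value for each gene in each barcode, from 10x Genomics single-cell libraries. The authors made these counts with Cell Ranger, version 3.1.0 with the builds mm10 and GRCm39 per the submitters' processing notes and version 7.1.0 per the file headers; annotation, strand and intron settings are not given in the sources used here. Counts of the same barcode were read in each file, and values were computed per file and averaged, because the files are repeat libraries of the same cells (n = 1). Levels are sums over cells in CPM, with exact Poisson intervals, shares have Clopper-Pearson intervals, and ratios have exact binomial intervals, at 95%. Ratios use CPM + 1 and calls need 2-fold and 50 UMIs per file. UMIs counted in different files may come from the same original molecules; this was not tested. No doublet caller was run. Of the gene identifiers, 99.6% were found in GENCODE M21 (GRCm38), the source of gene positions.

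Members, cell classes and gene lists were chosen with earlier results of these data known. Named genes are all members, the 3 genes of at least 20 CPM most like each member over 12 states, and called genes of the lists; 1 result of the list for HGF activation is not reported here. Comparisons by Malat1 content and by cycling among Pax7-detected cells of low Myog were added after seeing the data. Alternatives used edgeR 4.0.16 (TMM factors), DESeq2 1.42.0 (size factors), other thresholds, cells and thinning, and each file left out in turn. The log2 ratio and its call were tested on simulated data, and the intervals were not. No p-value was computed.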

Additional observations from a re-analysis of the deposited data

Results flagged for a closer look

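Among 50 values with 4 files each, 6 had 1 file apart from the other 3 by nearly the whole range of the 4 (Dixon's rule at 95%), where chance flags about 1 in 20. For Fgfr1 the log2 ratio by Pax7 was 0.23 in file 4 and 0.25 in the other files. For Fgfr4 the ratio by Myog was -0.61 in file 4 and -0.58 in the others. The share of thinned cells with an Hgf UMI was 0.0577% in file 2 and an equal 0.0770% in each of the others. With such a tie the rule flags a gap of any size, and only 24 kept cells had an Hgf UMI in any file. For Spry1 the ratio by cycling was -0.53 in file 2, against -0.74 to -0.71. For Dusp6 the ratio by cycling was -0.45 in file 1, against -0.26 to -0.23, and the share of thinned cells was 1.64% in file 1, against 1.85% to 1.89%.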

How the results depend on the processing

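No paired analysis was possible because all files belong to 1 group and 1 sample. Of 815 values recomputed under alternatives, 669 kept their direction and stayed within counting error, or for counts within 1.5 times. Spry4, just under the 2-fold limit, was called higher along Myog (1 member in place of 0) with median-ratio factors, TMM factors, CPM averaged over cells, without the top 5% of cells by UMIs, with Myog under 200 against at least 3000 CPM, and in non-cycling cells. Leaving out each file in turn gave 0 to 1 such members, with Spry4 called without file 2 or file 4. Over all genes, the settings named before that gave 1295, 1286, 963, 992, 1024 and 943 higher calls, in the order named, against 997. Under both scalings only 1 member, Met, was called lower in place of 3, with 2 (Met and Spred1) under CPM + 5 or thinning to 5000 UMIs, and Fgfr1 changed sign with the scalings along Myog (0.18 with median-ratio and 0.17 with TMM factors) and by Pax7 (-0.029 and -0.018). In non-cycling cells Spry2 went to -0.16 along Myog. By Pax7, 2 members (Met and Spred1) were called with cells thinned to 5000 UMIs or CPM averaged over cells, and 0 within low Myog. Within low Myog the ratio by Pax7 went to -0.11 for Fgf2, 0.37 for Spry1 and 0.94 for Spry4, and the ratio by cycling to -0.35 for Fgfr4 and -0.10 for Spred1. Met was the 1 member called by cycling with Mki67 plus Top2a under 25 against at least 400 CPM. Calls over all genes are not given here for that setting, nor by Pax7 for thinned cells and averaged CPM. Those member counts therefore stand without a background and are not read further.

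Over all genes, CPM + 5 gave 653 higher and 1182 lower calls along Myog (997 and 2224 with CPM + 1), 753 and 366 by Pax7 (1574 and 601) and 692 and 401 by cycling (1153 and 689). Higher calls by Pax7 were 1007 with median-ratio factors, 1025 with TMM factors and 930 with Pax7 detected after thinning. Within low Myog there were 206 higher and 27 lower calls by Pax7, and 650 and 288 by cycling. Apart from the scaling and the added constant, these alternatives change which cells are compared; the cause was not tested further. Depth limits Hgf and Fgf2 most: Hgf was under 50 UMIs per file in every comparison, so it was never called. With 1 sample, no value here measures the spread between cultures or mice.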
